A study of Mus musculus with 19 samples.

Results

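Flt3, the gene of a cytokine receptor of early progenitors, was 33.6% lower in Asxl1-mutant than in wild-type LK cells, while Hoxa9, Meis1, Mecom and Hlf showed no called difference. These values belong to 10 genes of stem and progenitor cells that were chosen by name: 4 genes of the Hoxa cluster (Hoxa5, Hoxa7, Hoxa9 and Hoxa10), the transcription factor genes Meis1, Mecom and Hlf, and the cell surface genes Kit, Cd34 and Flt3. All 10 were among the 16842 gene symbols counted, and each was listed in all 3 cell sets of the study. Gene transcripts were counted by RNA-seq in 19 libraries of freshly isolated mouse bone-marrow cells. LK cells, a progenitor fraction that lacks lineage markers and carries Kit, came from mice of 18 months, with 3 libraries of Asxl1-mutant (MT) and 3 of wild-type (WT) mice. CD11b-positive myeloid cells (Cd11b) came from mice of 18 months (old, 3 MT and 3 WT libraries) and of 4 months (young, 3 MT and 4 WT libraries). The mutant allele, the promoter or Cre line that drives it, the cells that carry it, the strain and the sex of the mice are not given in the sources used here. The labels do not say whether the replicates of a group are separate mice, so p-values measure only the spread between these libraries, which may be technical.

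Hoxa9 and Meis1 encode transcription factors that bind DNA together and that are known for high activity in stem and progenitor cells and in acute myeloid leukemia. Their transcripts normally fall as cells mature. Hox gene activity is held in place by trithorax-group complexes and by Dot1l, and is repressed by Polycomb complexes, to which Asxl1 is linked through its deubiquitinase partner Bap1. Kit and Flt3 are receptor tyrosine kinases that carry survival and growth signals, Kit in stem cells, myeloid-erythroid progenitors and mast cells, and Flt3 in multipotent, lymphoid and dendritic progenitors.

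Gene counts summed to between 31853263 and 59882448 per LK library, 41909460 and 68260809 per old Cd11b library, and 26251822 and 38347903 per young Cd11b library. Levels are given as CPM, gene counts scaled to library size with TMM factors within each cell set. Itgam, which encodes CD11b, lay between 57.1 and 103.4 CPM in the 6 LK libraries, between 2589 and 2820 in old and between 1472 and 1812 in young Cd11b libraries. In each of the 4 groups of 18 months, replicates 2 and 3 were much closer to each other than to replicate 1, with a chi-square per degree of freedom over genes of 3.02 to 6.74 against 14.6 to 47.6. Both were kept as labelled, and results at 18 months are also given with these replicates summed to 1 library. Beyond this, LK MT replicate 1 stood apart in stem cell and megakaryocyte markers, as described below.

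The 4 Hoxa genes lie within one stretch of mouse chromosome 6 on the minus strand (mm10, GENCODE M21), from Hoxa5 at chr6:52201754-52204587 and Hoxa7 at chr6:52214491-52221854 to Hoxa9 at chr6:52223100-52231089 and Hoxa10 at chr6:52231197-52240854. Flt3 lies at chr5:147330741-147400489 on the minus strand and Kit at chr5:75574916-75656722 on the plus strand of the same chromosome. Meis1 lies at chr11:18879817-19018985 (minus), Hlf at chr11:90336536-90390895 (minus), Mecom at chr3:29951296-30548008 (minus) and Cd34 at chr1:194938819-194961279 (plus). Of the exon bases of Hoxa7, 586 (20.4%) are shared with the antisense gene Hoxaas3, and of those of Meis1, 1029 are shared with a gene on the same strand and 896 with an antisense gene. The use of strand in counting is not given in the sources used here, so reads of these partners cannot be told apart.

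The promoters of 4 members are shown because the results turn on them: Flt3 and Kit, the members called lower in LK MT cells, and Hoxa9 and Meis1, the partners whose levels were not called different. Each run covers 250 bases before to 50 after the start site, 300 in all, read 5′ to 3′ on the strand of the gene (RefSeq, GRCm38.p6), with every CpG in capitals.
Flt3, chr5:147400440-147400739, minus strand: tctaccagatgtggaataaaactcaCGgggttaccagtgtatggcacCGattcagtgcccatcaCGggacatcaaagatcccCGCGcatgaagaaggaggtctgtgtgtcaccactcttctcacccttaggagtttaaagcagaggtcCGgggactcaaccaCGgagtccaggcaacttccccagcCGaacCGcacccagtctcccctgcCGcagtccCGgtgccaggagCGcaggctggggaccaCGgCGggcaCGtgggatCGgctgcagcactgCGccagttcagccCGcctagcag
Kit, chr5:75574737-75575036, plus strand: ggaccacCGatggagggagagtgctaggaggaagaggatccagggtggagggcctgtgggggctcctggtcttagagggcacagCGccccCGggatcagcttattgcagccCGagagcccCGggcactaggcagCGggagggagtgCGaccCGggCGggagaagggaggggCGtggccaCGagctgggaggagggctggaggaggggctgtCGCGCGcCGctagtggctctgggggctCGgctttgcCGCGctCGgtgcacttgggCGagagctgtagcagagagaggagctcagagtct
Hoxa9, chr6:52227321-52227620, minus strand: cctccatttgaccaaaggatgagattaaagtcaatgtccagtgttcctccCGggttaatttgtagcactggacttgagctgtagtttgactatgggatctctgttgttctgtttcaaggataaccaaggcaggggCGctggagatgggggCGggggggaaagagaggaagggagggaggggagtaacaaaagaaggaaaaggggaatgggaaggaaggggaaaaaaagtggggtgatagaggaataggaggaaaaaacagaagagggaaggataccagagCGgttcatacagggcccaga
Meis1, chr11:19018920-19019219, minus strand: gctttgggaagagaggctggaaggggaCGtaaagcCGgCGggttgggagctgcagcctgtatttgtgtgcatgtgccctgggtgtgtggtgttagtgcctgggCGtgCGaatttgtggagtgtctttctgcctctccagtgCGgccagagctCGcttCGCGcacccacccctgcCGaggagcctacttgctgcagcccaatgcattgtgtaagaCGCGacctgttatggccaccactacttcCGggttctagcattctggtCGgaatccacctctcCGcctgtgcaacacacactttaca
The Flt3 run holds 18 CpG, the Kit run 20, the Meis1 run 15 and the Hoxa9 run 4, against a median of 7 over 32851 mouse promoters of the same length. All 10 members matched the RefSeq table, and Kit, Mecom and Hoxa10 had more than one start site; the Kit run is of its first. Short motifs were searched on both strands. The letters TGACAG, read by MEIS proteins, were held by 19.2% of all promoters. The letters TGTGGT of RUNX proteins were held by 16.8%. The GATA letters AGATAA were held by 11.2%, and the ETS letters CGGAAG by 16.9%. None of these motifs overlapped another in the runs, and the 4 motifs were not found in the Flt3, Kit and Hoxa9 runs. Meis1 held the RUNX letters at bases -166 to -161 from its start site and the ETS letters, on the opposite strand, at -12 to -7. These matches describe the letters only.

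In LK cells the 10 genes were present at very different levels. Per kilobase of exon, WT libraries held Kit at 29.5 ± 2.12 CPM (SD, n = 3), Cd34 at 25.5 ± 0.649 and Flt3 at 7.27 ± 0.0687. Hlf followed at 4.09 ± 0.446 CPM per kilobase and Meis1 at 2.79 ± 0.290. Hoxa5, Hoxa7 and Hoxa9 came next, at 1.88 ± 0.203, 1.85 ± 0.142 and 1.66 ± 0.0690 CPM per kilobase, and the ranges of Hoxa5 and Hoxa7, and of Hoxa7 and Hoxa9, overlapped. Mecom, at 0.557 ± 0.0938 CPM per kilobase, and Hoxa10, at 0.403 ± 0.0332, were lowest. All other neighbours in this order had ranges that did not overlap in the 3 libraries.

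The main comparison was of MT with WT LK cells. A gene was called at an adjusted p under 0.05 in edgeR's quasi-likelihood test (Benjamini-Hochberg over all genes tested). Of the 14113 genes tested, 29.8% were called in either direction and 15.9% were called lower in MT. Of the 10 members, all tested, Flt3 and Kit were called, both lower, so 2 of 10 members stood against 29.8% of all genes. The median log2 change was 0.07 over the members and 0.02 over all genes tested.

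Among the receptors, Flt3 was at 34.4, 27.7 and 27.4 CPM in LK MT replicates 1 to 3 and at 45.4, 44.7 and 44.6 CPM in WT replicates 1 to 3. All MT libraries lay below all WT libraries, and the WT libraries had an SD of 0.424 CPM. The log2 fold change was -0.59 ± 0.09 (SE; 95% confidence interval -0.79 to -0.40), with an edgeR adjusted p of 0.00657. Of all genes tested, 3.15% had a log2 change at or below that of Flt3. Flt3 was called in 11 of 13 alternative settings, with log2 changes of -0.70 without MT replicate 1 (edgeR adjusted p 0.00119) and -0.55 after a fitted trend on transcript length and GC content was taken out (0.00463). With replicates 2 and 3 of each group summed, the change was -0.54 and the edgeR adjusted p 0.175, and 3 genes in all were called in that fit. In bulk samples, fewer cells of a type and less RNA per cell cannot be told apart.

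Kit, the receptor of stem cell factor and the antigen used to isolate LK cells, was at 243 CPM in MT replicate 1, and at 206 and 209.6 in MT replicates 2 and 3. The WT libraries held 241, 275 and 273 CPM. MT replicate 1 lay just above WT replicate 1, so the groups overlapped. The log2 fold change was -0.26 ± 0.08 (SE; 95% confidence interval -0.43 to -0.08; edgeR adjusted p 0.0362), a level 16.4% lower. Kit was called in 6 of 13 alternatives. Without MT replicate 2 or 3, or WT replicate 2 or 3, the edgeR adjusted p was 0.125 to 0.129, with the replicates summed 0.329, and without the length and GC trend the change was -0.12 (adjusted p 0.0937).

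Cd34 encodes a sialomucin of the surface of progenitors and blood vessel cells, by which LK cells are commonly split into lineages. Its CPM were 181, 165 and 166 in MT replicates 1 to 3, and 192, 183 and 184 in WT replicates. All MT libraries lay below all WT libraries by a small margin. The log2 change of -0.13 ± 0.05 (SE; 95% confidence interval -0.23 to -0.02) was not called, with an edgeR adjusted p of 0.0743. It was called in 3 of 13 alternatives: DESeq2 (adjusted p 0.0429), and edgeR without MT replicate 1 (0.0146) and with replicates 2 and 3 only (3.83e-07). Without the length and GC trend it was -0.02 (edgeR adjusted p 0.836). Flt3 and Cd34 were the members whose groups did not overlap in LK cells, 2 of 10 against 46% of all genes tested.

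**Figure D1:**
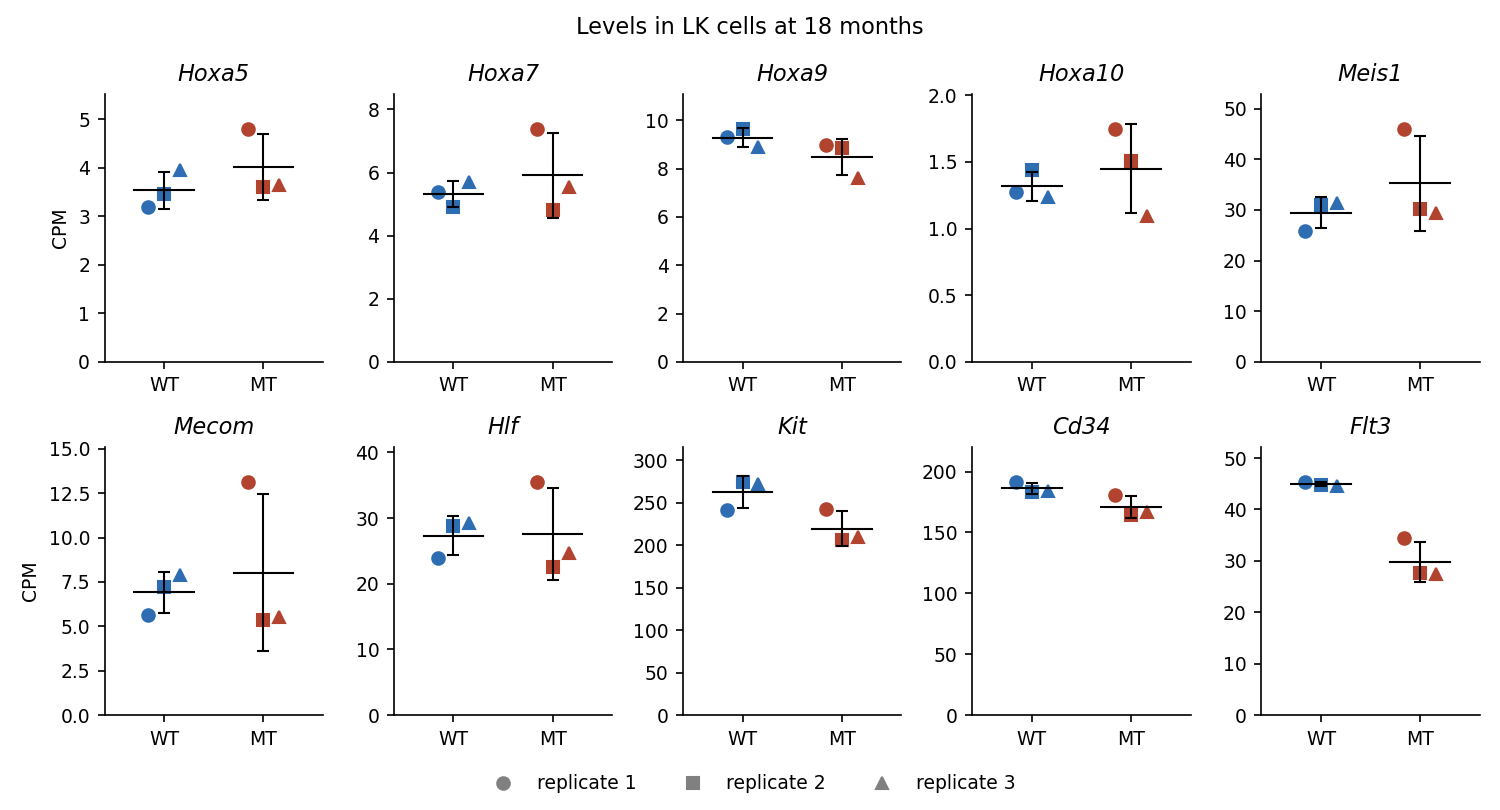
CPM of the 10 genes in each LK library (y axis, from 0), WT in blue and MT in red, with marker shape for the replicate number. Black lines are the mean and SD of 3 libraries. The Flt3 panel shows MT libraries at 27.4 to 34.4 CPM below WT libraries at 44.6 to 45.4, and MT replicate 1 is the highest MT library for Mecom, Meis1 and Hlf.

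None of the 4 Hoxa members was called in LK cells. Hoxa9 was at 8.96, 8.84 and 7.62 CPM in MT replicates 1 to 3 and at 9.29, 9.66 and 8.89 CPM in WT replicates. The highest MT library lay above the lowest WT library, so the groups overlapped. The log2 change was -0.13 ± 0.09 (SE), with a 95% confidence interval of -0.35 to 0.08 and an edgeR adjusted p of 0.31. The upper bound of that interval is a rise of 0.08 on the log2 scale.

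Hoxa5, Hoxa7 and Hoxa10 were higher on average in MT, but each overlapped with WT. Hoxa5 was at 4.81, 3.61 and 3.64 CPM in MT and 3.20, 3.46 and 3.95 in WT libraries (log2 change 0.19, 95% confidence interval -0.18 to 0.55, edgeR adjusted p 0.404). Hoxa7 was at 7.39, 4.80 and 5.53 CPM in MT and 5.38, 4.90 and 5.71 in WT libraries (0.15, -0.23 to 0.53, 0.527 in the same order of values). Hoxa10, counted 40 to 84 times per LK library, was at 1.75, 1.503 and 1.09 CPM in MT and 1.28, 1.44 and 1.24 in WT libraries, with a log2 change of 0.13 (95% confidence interval -0.37 to 0.62, edgeR adjusted p 0.69). In each of these 3 genes the highest library was MT replicate 1. Without it the changes of Hoxa5, Hoxa7 and Hoxa10 were 0.04, -0.04 and -0.03.

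Of the other genes of the cluster, Hoxa4 and Hoxa6 lie beside the members and were listed in the LK set. Hoxa4, next to Hoxa5, had means of 1.67 ± 0.299 CPM with the mutation and 1.09 ± 0.146 without (SD, n = 3 each). Its log2 change of 0.61 ± 0.21 (SE) had an edgeR adjusted p of 0.0563. Hoxa6, between Hoxa5 and Hoxa7, had means of 0.256 ± 0.0904 CPM with and 0.498 ± 0.131 without it (SD, n = 3 each), a change of -0.96 ± 0.36 (SE; edgeR adjusted p 0.077). Neither was called, and the signs of their changes differed. Over 17 tested Hox genes and partners outside the members, 12 changes lay above 0, against 53.1% of all genes. Their median was 0.24 against 0.02 over all genes, and 0.05 without MT replicate 1.

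Meis1, Mecom and Hlf encode transcription factors used to mark long-lived stem cells: Meis1 a homeodomain partner of Hoxa9, Mecom the zinc-finger protein Evi1, and Hlf a basic leucine zipper protein. Meis1 was at 46.1, 30.2 and 29.5 CPM in MT replicates 1 to 3 and at 25.9, 31.0 and 31.4 in WT replicates. Mecom was at 13.1, 5.37 and 5.55 CPM in MT and 5.63, 7.22 and 7.90 in WT libraries. Hlf was at 35.5, 22.5 and 24.7 CPM in MT and 23.9, 28.7 and 29.3 in WT libraries. For all 3 genes MT replicate 1 was the highest of the 6 LK libraries, and MT replicates 2 and 3 lay within or below the WT range.

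The log2 changes of these 3 genes were 0.26 ± 0.18 for Meis1, 0.21 ± 0.36 for Mecom and 0.01 ± 0.17 for Hlf (SE), and none was called (edgeR adjusted p 0.307, 0.688 and 0.962). Their 95% confidence intervals ran from -0.16 to 0.68, -0.63 to 1.05 and -0.39 to 0.42. Without MT replicate 1 the changes were 0.02, -0.34 and -0.21, so the sign turned for Mecom and Hlf. With replicates 2 and 3 of both groups alone, Mecom (-0.47) and Hlf (-0.30) were called lower, with edgeR adjusted p of 0.000186 and 4.47e-06. That fit rests on the closely alike libraries and called 8525 genes.

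LK MT replicate 1 was the highest MT library for all 10 members, by a small margin for Hoxa9 (8.956 against 8.843 CPM in MT replicate 2). MT replicates 2 and 3 were closely alike, with a chi-square per degree of freedom of 4.721 against 26.35 and 26.68 with replicate 1. The share of all genes highest in MT replicate 1 was not computed, so this count does not set the members apart. The same library held more transcripts of 10 stem cell and multipotent progenitor markers (such as Procr and Ly6a), whose summed level was 408 CPM against 257 and 263 in the other MT libraries and 269 to 309.9 in WT. Its sum of 10 megakaryocyte markers was 671 CPM, against 418 and 423 in the other MT libraries and 364 to 472 in WT. Relative to the WT mean, Mecom stood 0.93 higher on the log2 scale in this library, Meis1 0.65, Hoxa7 0.47 and Hlf 0.38, and the stem cell and megakaryocyte sums stood 0.47 and 0.62 higher. The part of the cell makeup of this library in these values was not tested.

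**Figure D2:**
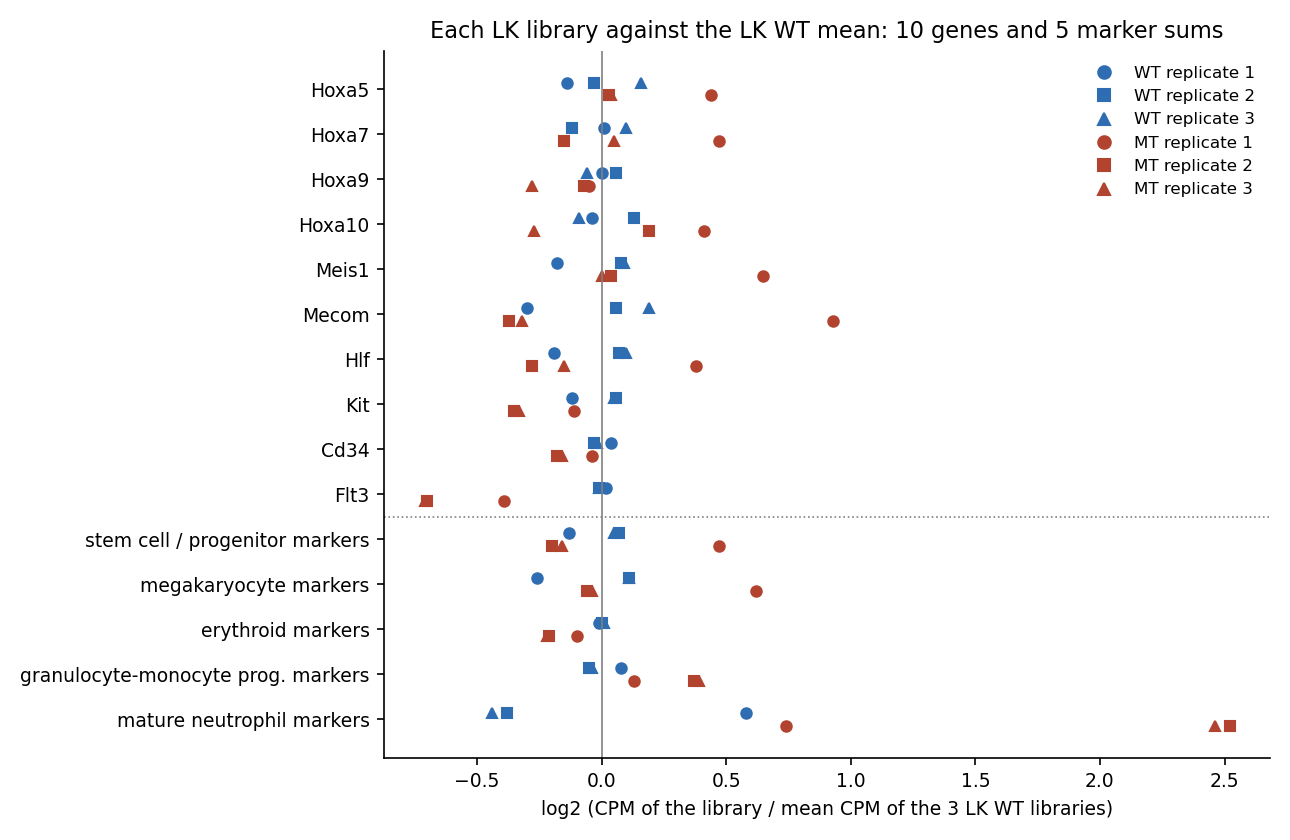
Level of each of the 10 genes (upper rows) and summed level of 5 marker lists (lower rows) in each LK library, as log2 of its CPM over the mean CPM of the 3 WT libraries (x axis), WT in blue and MT in red. MT replicate 1 (red circles) lies to the right for Mecom (0.93), Meis1 (0.65) and the stem cell and megakaryocyte sums. All MT libraries lie to the left of the WT mean for Flt3, Kit, Cd34, Hoxa9 and the erythroid sum, furthest for Flt3.

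Markers of other cells also differed between the LK groups. Of 12 granulocyte-monocyte progenitor markers, 10 were called higher in MT, among them the granule genes Mpo (0.23), Elane (0.49) and Prtn3 (0.39), while the monocyte-lineage genes Irf8 (-0.23) and Csf1r (-0.24) were called lower (log2 changes), against 29.8% of all genes called in either direction. These 10 higher and 2 lower calls became 1 and 0 when any one of MT replicates 2 and 3 or WT replicates 2 and 3 was left out, 6 and 1 without WT replicate 1, 2 and 1 without the length and GC trend, and 0 with replicates 2 and 3 summed. Their summed level was 20811 to 24846 CPM in MT and 18433 to 20151 in WT libraries. Of 13 erythroid markers tested, 4 were called lower and 0 higher, with sums of 5908 to 6438 CPM in MT and 6826 to 6950 in WT. Of 12 mature neutrophil markers (list median 1.98), edgeR called 1 higher, S100a8 (1.74), while DESeq2 called 7, edgeR called 10 without MT replicate 1, and edgeR called 0 without a low-count filter. They summed to 1357, 4644 and 4475 CPM in MT replicates 1 to 3 and to 599.9 to 1213 in WT. The sums of 12 B cell and lymphoid progenitor markers overlapped, at 115 to 151 CPM in MT and 116 to 153 in WT, with Dntt called lower (-0.40) and Cd79b called higher (0.42). Of 9 mast cell and basophil markers tested, 4 were called lower and 1 higher (list median -0.25), and of 18 cell cycle genes 8 were called lower and 0 higher (-0.10). Of 10 T and NK cell markers tested, 3 were called higher and 0 lower (0.45), and of 11 monocyte and macrophage markers, 2 higher and 3 lower (0.05). Leaving out any one of MT replicates 2 and 3 or WT replicates 2 and 3 left 1 cell cycle gene called lower. It left 0 T and NK cell markers called, and 0 to 2 erythroid and 2 to 3 mast cell and basophil markers called lower. Without WT replicate 1, 13 cell cycle genes and 6 erythroid markers were called lower, and 5 T and NK cell markers higher. With replicates 2 and 3 summed, 0 genes of these lists were called. The sums were 293.5 to 329.1 CPM in MT and 321.5 to 358.7 in WT for mast cell and basophil markers, and 7243 to 7426 and 7901 to 8501 for cell cycle genes. They were 250.9 to 318 CPM in MT and 206.2 to 249.5 in WT for T and NK cell markers, and 1471 to 1614 and 1286 to 1449 for monocyte and macrophage markers. No list had a listed gene at 0 in every library of an LK group. The part of these shifts in the values of Flt3 and Kit was not tested.

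Genes around the members were read from lists chosen by name. Of 23 tested regulators of Hox genes (MLL and Dot1l complexes, Polycomb and partners), 8 were called lower in LK MT, against 15.9% of all genes, and 0 higher. The list median was -0.10 against 0.02 over all genes. Kmt2a (the MLL gene), Kat6a, Kat7, Cdx2, Cdx4 and Ezhip were among the 29 genes chosen but had no counts listed, so they were not tested. The 8 lower calls included Dot1l (-0.66 ± 0.08, SE), which methylates histone H3 lysine 79 at Hox genes, Aff4 (-0.47), Nup98 (-0.73), Mllt10 (-0.26) and the Polycomb gene Bmi1 (-0.19). Ezh2 (0.02) and Men1 (-0.01) were not called. Of 17 Hox genes and partners tested, Pbx2 (0.20) was called higher and Pbx3 (-0.56) lower, both cofactors of Hox proteins. Of 22 genes described as targets of Hoxa9 and Meis1, Id2 (0.50) was called higher and Jmjd1c (-0.61), Pbx3 and Cdk6 (-0.96) lower. In both of these lists calls were less frequent than over all genes (29.8% in either direction). Leaving out any one of MT replicates 2 and 3 or WT replicates 2 and 3 left 5 Hox regulators called lower. Without the length and GC trend, 6 were called lower, and with replicates 2 and 3 summed, 0 genes of any of these lists were called.

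In the list of Kit and Flt3 signalling, which includes the ligand genes, 9 of 25 tested genes were called lower, against 15.9% of all genes, and 1 higher. The lower calls fell to 0 without WT replicate 2, to 1 without any one of MT replicates 2 and 3 and WT replicate 3, to 6 without the length and GC trend and to 0 with replicates 2 and 3 summed. Those 9 included the signal transducers Stat5a (-0.17) and Stat5b (-0.21), and the negative regulators Sh2b3 (-0.31) and Cbl (-1.38). The higher one was the phosphatase gene Ptpn6 (0.21). The ligand genes Flt3l (-0.09) and Kitl (-0.49) were not called (edgeR adjusted p 0.394 and 0.231). Of 31 other stem and progenitor surface genes, 7 were called higher, among them Cd9 (0.42) and Ly6a (0.47), and 5 lower, among them Il1rl1 (-0.30) and Csf2rb (-0.26), against 29.8% of all genes called in either direction. Without any one of the same 4 libraries 1 was called higher and 1 to 2 lower, and with the sums 0. Of 28 other stem cell transcription factor genes, 5 were called higher, among them Fli1 (0.33) and Nfia (0.36). Another 2, Tal1 (-0.21) and Hif3a (-0.75), were called lower. The share of all genes called in either direction was 29.8%. Without any one of those libraries 2 of these transcription factor genes were called higher and 0 to 1 lower.

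The same comparison in Cd11b cells asked whether the differences are found in mature myeloid cells. In old Cd11b cells 6 of the 10 members had enough counts to be tested, and 0 were called, against 0.336% of all genes tested. Flt3 was at 5.495, 6.58 and 6.09 CPM in MT and 5.93, 5.796 and 5.58 in WT libraries, groups that overlapped, with a log2 change of 0.07 ± 0.09 (SE; 95% confidence interval -0.14 to 0.28; edgeR adjusted p 0.745). Kit had means of 51.3 ± 1.69 CPM with the mutation and 52.7 ± 3.32 without (SD, n = 3 each; log2 change -0.04, edgeR adjusted p 0.768). Hoxa7, Hoxa9, Hoxa10 and Mecom had 1 to 14 counts per library and did not pass the low-count filter. Hoxa7 was at 0.212, 0.232 and 0.107 CPM in MT, just above WT at 0.105, 0.0966 and 0.0887, which rests on 5 to 14 and 4 to 6 counts. Among the 13398 genes tested in old Cd11b cells, the groups did not overlap for 22.9%.

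Cd34 was rare in old Cd11b cells. It had 50, 154 and 118 counts in MT replicates 1 to 3 (0.815, 2.55 and 2.52 CPM) and 69, 33 and 58 counts in WT replicates (1.203, 0.797 and 0.858 CPM). MT replicates 2 and 3 were high and MT replicate 1 was within the WT range. The log2 change of 1.03 ± 0.42 (SE) was not called (edgeR adjusted p 0.28), while without MT replicate 1 it was 1.40 and called (0.0256). The 2 libraries with high Cd34 also had the highest sums of erythroid markers, 204.8 and 205 CPM against 83.5 in MT replicate 1 and 95.8 to 139.8 in WT. The same 2 libraries had the highest sums of cell cycle genes, 3120 and 3140 CPM against 2891 in MT replicate 1 and 2845 to 2887 in WT. Stem cell and multipotent progenitor markers went the other way, at 28.62 CPM in MT replicate 1 and 21.01 and 21.47 in MT replicates 2 and 3. So did B cell and lymphoid progenitor markers, at 127.5 CPM in MT replicate 1 and 49.81 and 48.56 in MT replicates 2 and 3. Whether erythroid or other cells gave the Cd34 counts was not tested.

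In young Cd11b cells 9 members were tested (Hoxa10, at 2 to 9 counts per library, was not) and 0 were called, as for all genes (0%, edgeR; 444 of 13755 genes at an unadjusted p under 0.05, 0 of the members among them, and 19 genes called by DESeq2). Flt3 was at 22.9, 25.4 and 16.6 CPM in MT and at 23.2, 23.5, 25.7 and 20.9 in WT libraries, with a log2 change of -0.11 and a 95% confidence interval of -0.41 to 0.19. Hoxa9 was at 1.97, 2.78 and 1.06 CPM in MT and 2.31, 2.03, 2.47 and 1.57 in WT (log2 change -0.11, 95% confidence interval -0.79 to 0.57). In both genes MT replicate 3 and WT replicate 4 were the lowest of their groups. These 2 libraries, the ones with more Ddx3y (Y-linked) than Xist counts, lay below all 5 other young libraries in 8 of the 10 members, against 18.3% of the 15703 genes listed, Cd34 among them (21.3 and 24.5 CPM against 33.6 to 38.4). They also held the lowest sums of B cell and lymphoid progenitor markers, 159.6 and 179.7 CPM against 276 to 388. With a covariate for sex-linked expression 0 members were called.

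**Figure D3:**
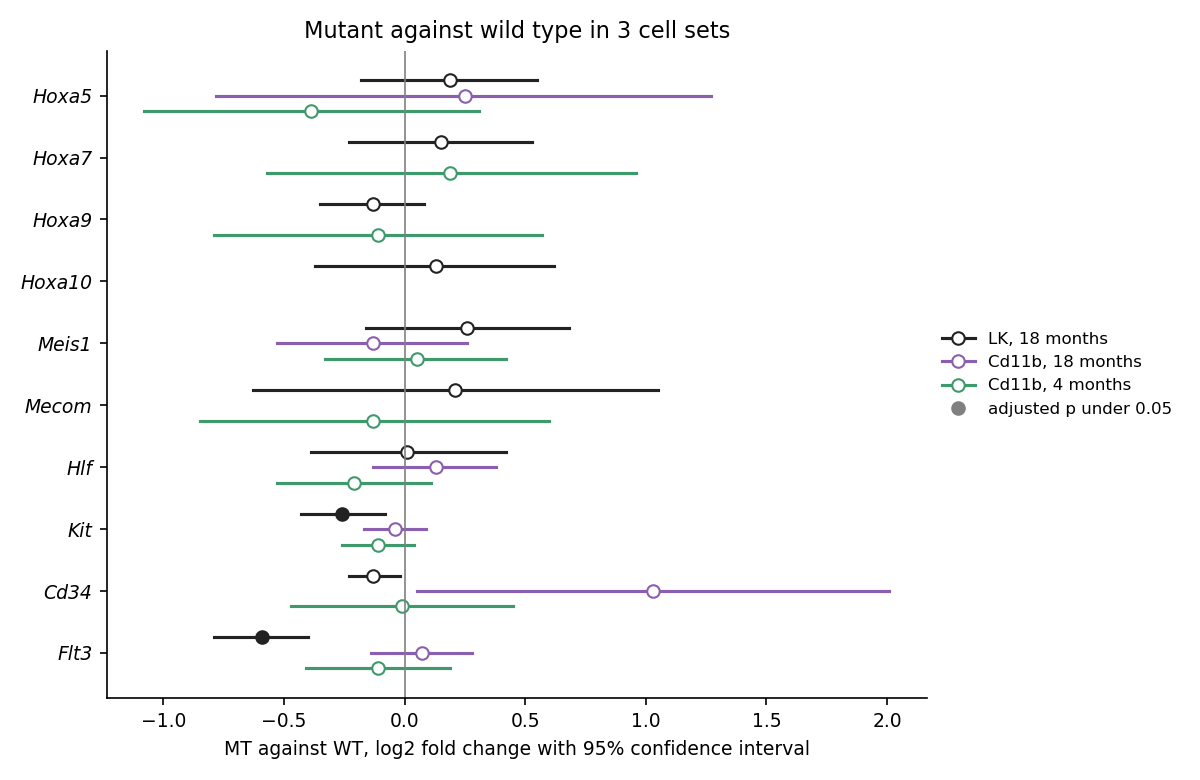
Log2 fold change of MT against WT (x axis) with its 95% confidence interval for each gene in LK cells (black), old Cd11b cells (purple) and young Cd11b cells (green), with filled points where the edgeR adjusted p was under 0.05. Genes that did not pass the low-count filter have no point. The filled points are Flt3 (-0.59) and Kit (-0.26) in LK cells, and the interval of Flt3 in old Cd11b cells (-0.14 to 0.28) does not reach the LK value.

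Whether the effect of genotype differed between cell types at 18 months was tested with an interaction term, which compares the LK change with the old Cd11b change on the same libraries. Flt3 was the member called, with a difference of -0.67 ± 0.13 on the log2 scale (SE; 95% confidence interval -0.96 to -0.38; edgeR adjusted p 0.0088), against 20.7% of the 13996 genes tested. It was called in 17 of 18 alternatives, and with replicates 2 and 3 summed no gene was called (Flt3 adjusted p 0.363). Cd34 differed by -1.14 (edgeR adjusted p 0.0835), Hoxa7 by -0.81 (0.182) and Kit by -0.23 (0.14), none of them called. Without LK MT replicate 1 Kit was called as well, and without old MT replicate 1 Cd34 was called as well.

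The levels of the 10 genes were next set side by side over cell types. In WT mice of 18 months, LK cells had more of each of the 10 genes than Cd11b cells, and all 10 were called, against 45.1% of 13710 genes called higher in LK. LK cells were isolated by Kit, and the 10 genes were chosen by name as genes of stem and progenitor cells. This count was thus favoured by the isolation and the choice, and is a description only. Hoxa9 was 51.8-fold higher (log2 5.70 ± 0.29, SE; edgeR adjusted p 2.05e-07), with 8.89 to 9.66 CPM in LK and 0.0483 to 0.192 in Cd11b cells. Cd34 differed most, 118.5-fold (log2 6.89). Hoxa7 and Mecom were 33.2-fold and 32.1-fold higher, and Hoxa5, Hoxa10 and Meis1 14.03-fold, 13.1-fold and 12.3-fold. Flt3, Kit and Hlf were 4.78-fold, 3.06-fold and 2.88-fold higher. The receptors were thus still at 5.58 to 5.93 CPM (Flt3) and 50.6 to 56.6 CPM (Kit) in old WT Cd11b cells. These folds share the LK WT and old WT libraries with the comparisons of MT and WT. The folds use TMM factors computed over both sets together, and ratios of the printed CPM, scaled within each set, were a median of 1.63 times as large over all genes. All 10 calls held in the 12 alternatives.

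Young and old WT Cd11b cells were compared after their values were seen. All 9 members tested were called lower at 18 than at 4 months, against 36.9% of 13719 genes called lower. Cd34 fell from 24.5 to 35.1 CPM in the 4 young libraries to 0.797 to 1.203 CPM in the 3 old ones, a 27.6-fold drop (log2 -4.79 ± 0.18, SE; edgeR adjusted p 2.04e-08). Hoxa9 fell from 2.10 ± 0.396 to 0.105 ± 0.0765 CPM (SD, n = 4 and 3; log2 -3.98). The log2 changes were -3.61 for Hoxa7, -2.95 for Mecom, -2.76 for Meis1 and -2.44 for Hoxa5. Flt3 fell by 1.75, from 20.9 to 25.7 CPM down to 5.58 to 5.93 CPM, and the changes of Hlf and Kit were -1.09 and -0.78. These changes use TMM factors computed over both sets together; ratios of the printed CPM, scaled within each set, were lower by a median of 0.27 on the log2 scale over all genes. All 9 were called in the 11 alternatives run.

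Markers of other cells fell with them in the same comparison: 11 of 12 B cell and lymphoid progenitor markers (list median -4.19), 11 of 12 erythroid markers (-2.94), 7 of 8 mast cell and basophil markers (-3.18) and 6 of 10 stem cell markers (-1.01) were called lower, and 11 of 12 mature neutrophil markers were called higher (1.44). The summed B cell and lymphoid progenitor markers were at 179.7 to 388 CPM in young and 40.2 to 58.4 in old WT libraries, and the mature neutrophil sums at 50550 to 63851 and 131485 to 159309. The part of these cells in the fall of the 10 genes was not tested. The young and old libraries were listed in separate sets with their own genes, so age and any difference in how the sets were collected cannot be told apart.

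**Figure D4:**
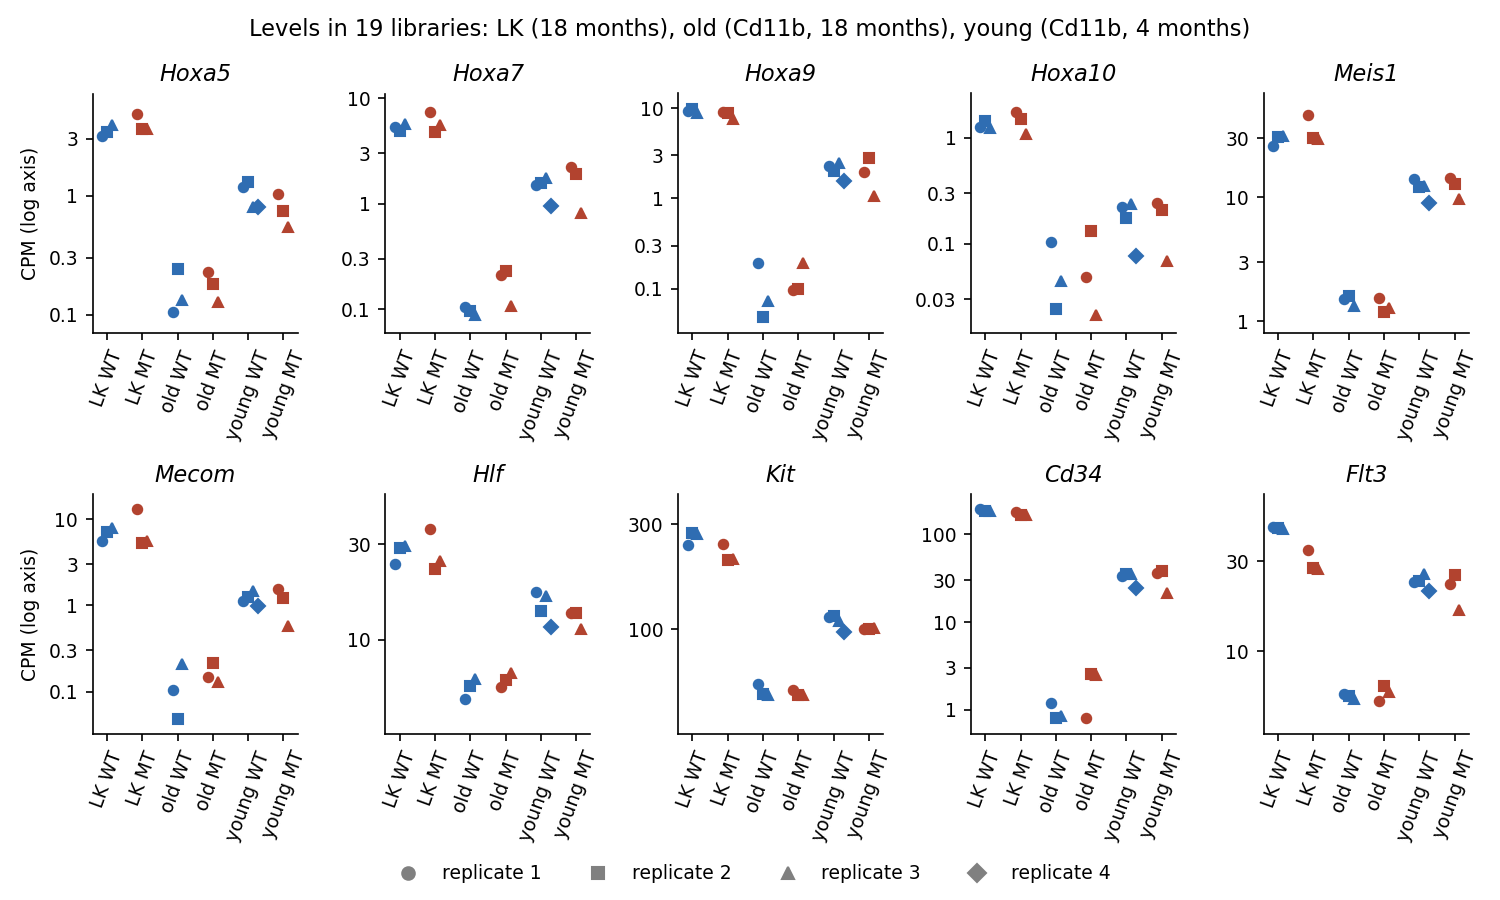
CPM of each gene (y axis, log scale) in the 19 libraries by group, WT in blue and MT in red, with marker shape for the replicate number; CPM were scaled within each cell set. So scaled, WT means are highest in LK and lowest in old Cd11b cells for all 10 genes, with young Cd11b cells between, and the young MT replicate 3 and WT replicate 4 lie low for most genes.

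The genes most like Hoxa9 and Flt3 were looked up as a description, by Pearson's r of log2 CPM with a 0.5 CPM offset over 14245 genes. Over all 19 libraries Hoxa9 was most like Apobec3 (0.997), 1300001I01Rik and Fam78a (0.996 each), and 3464 genes reached 0.9, since the 3 cell sets dominate such values. Over the 6 LK libraries its nearest genes were Prox2, Lrrc28 and 2810403D21Rik (0.98 each), and 46 genes reached 0.9. Flt3 was most like Fut8 (0.996), Mat2a (0.9953) and Evpl (0.9952) over the 6 LK libraries, with 1325 genes at 0.9 or more, and like Fam120a, Gm17296 and Mtr (0.99 each) over all 19. The points share library depth and the grouping by genotype, and with 6 libraries high values are common.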

How the data were processed

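Bone-marrow LK and Cd11b cells of Asxl1-mutant and wild-type mice were profiled by RNA-seq (19 libraries in 6 groups, taken from the sample titles). Each library's deposited file holds raw counts by gene symbol, made by the authors; RNA was made into strand-keeping libraries, per the labels' protocols. STAR, HTSeq, DESeq2 and mm10 are named in the submitters' processing notes, without versions or roles. The genes listed and filtered in each set (at least 10 counts over its libraries) are the authors'. The deposited counts of transposable elements were not used here.

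Counts were tested with edgeR 4.0.16 (quasi-likelihood fit, filterByExpr, TMM factors; R 4.3.3, limma 3.58.1), each comparison on the libraries it compares, with Benjamini-Hochberg adjustment over all genes tested. The standard error is the log2 change over the square root of F, and intervals use its degrees of freedom. CPM carry TMM factors computed within each cell set, and levels per kilobase use the union of GENCODE M21 exons. The script was tested on counts simulated from the LK libraries, with 50 genes changed at each fold. It called 10 of 50 at 1.2-fold, 27 at 1.5-fold, 44 at 2-fold and 46 at 4-fold, with 11 false calls among 14113 genes. In these simulated counts, changes as small as 1.2-fold were thus mostly missed. The counts were drawn independently for each library, without the closeness of replicates 2 and 3 in the real libraries. The rate of false calls in the real data was therefore not tested. Alternatives were DESeq2 1.42.0, RLE factors, testing without a low-count filter, a replicate block, each library left out, replicates 2 and 3 summed, a trend on transcript length and GC content removed (5-df splines; length known for 89.0% of LK genes tested) and a covariate for sex-linked expression; replicates 2 and 3 alone and the whole comparison of old with young cells were added after the data were seen. Replicate numbers were not taken to pair samples in the main tests.

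The 10 genes and the gene lists were chosen with earlier results of these data known. By rule, the text names all members, up to 4 genes of each pathway list with the smallest adjusted p in LK cells, up to 3 of each marker list by level, and the 3 genes most like Hoxa9 and Flt3; the other genes named from the lists were chosen after their values were seen. Tables and figures used Python 3.11.15, numpy 2.4.6, pandas 2.3.3 and matplotlib 3.10.9.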

Additional observations from a re-analysis of the deposited data

Results flagged for a closer look

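One of the 10 member levels examined for a library apart from the rest, in the group of 4 young Cd11b WT libraries, was so marked: for Cd34, WT replicate 4 (24.5 CPM) lay apart from the other libraries (33.6 to 35.1 CPM), with a gap of 0.859 of the group's whole range. Such a gap appears by chance in about 1 of 20 independent groups, but the 10 levels come from the same 4 libraries. WT replicate 4 was the lowest young WT library in 9 of 10 members, and it held more Ddx3y than Xist counts.

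The change of Flt3 with genotype differed between cell types: the LK change minus the old Cd11b change was -0.67 on the log2 scale by the interaction term (edgeR adjusted p 0.0088).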

How the results depend on the processing

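Of the LK results, Flt3 and Kit stayed lower in MT in all 13 alternatives. The number of LK genes called (4206) was 3 with the replicate block and 3 with replicates 2 and 3 summed, with 0 members called in each; Flt3 was then at an edgeR adjusted p of 0.0666 with the replicate block and 0.175 with the sums. With the length and GC trend removed 1 member was called. With replicates 2 and 3 only, 8525 LK genes and 5 members were called, and Hlf was at -0.30, Hoxa10 at -0.07, Hoxa5 at -0.02, Hoxa7 at -0.03, Mecom at -0.47 and Meis1 at -0.06; with the replicate block Hlf was at -0.01. Leaving out each LK library in turn gave 981 (without WT replicate 2) to 5569 genes (without WT replicate 1), 1 to 3 members, and log2 changes of -0.21 to 0.14 for Hlf, -0.03 to 0.30 for Hoxa10, -0.04 to 0.28 for Hoxa7 and -0.34 to 0.43 for Mecom.

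In old Cd11b cells the 45 genes called became 515 (DESeq2), 0 (replicate block), 1 (summed), 71 (trend removed), 5165 (replicates 2 and 3 only, with 1 member, Cd34) and 0 to 1819 with 1 library left out, with 0 to 1 member called and Kit at -0.07 to 0.02. In young Cd11b cells the 0 genes became 19 (DESeq2), 16 (replicate block), 7 (sex-linked covariate, Cd34 at 0.02) and 0 to 1 with 1 library left out. Hoxa7 was there at -0.03 and Meis1 at -0.08 with the replicate block. Leaving out 1 young library gave -0.16 to 0.21 for Cd34, -0.24 to 0.05 for Flt3, -0.07 to 0.51 for Hoxa7, -0.46 to 0.18 for Hoxa9, -0.42 to 0.17 for Mecom and -0.08 to 0.19 for Meis1.

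The interaction called 2904 genes, 0 with replicates 2 and 3 summed (0 members; Hlf 0.03, Hoxa10 0.03, Mecom 0.16), 7334 with replicates 2 and 3 only (4 members; Hoxa5 0.10) and 1129 to 4168 with 1 library left out (1 to 2 members; Hlf -0.30 to 0.03, Hoxa10 -0.80 to 0.81, Hoxa5 -0.41 to 0.13, Mecom -0.82 to 0.16). The causes were not tested. The replicate block has no basis in the labels, which do not pair the libraries. Deviations of same-numbered libraries of the 2 genotypes had r of -0.39 to -0.17 in LK, -0.12 to 0.20 in old and -0.25 to 0.44 in young cells. Of 3 such pairs per set, r was over 0.1 in 0 in LK, 1 in old and 2 in young cells. With so few libraries per group, these values cannot settle whether libraries were paired. Hoxa7, Hoxa9, Hoxa10 and Mecom had 1 to 14 counts per library in old Cd11b cells, which limits the precision of their values.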
